A study of Mus musculus with 4 samples.

Results

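Daidzein added to pig testis extract was examined in adipocytes derived from 3T3-L1 cells, mouse embryo fibroblasts that turn into fat cells when given a hormonal induction mixture. Cells treated with daidzein and pig testis extract together (daidzein+PT) were set against cells treated with the extract alone (PT). The comparison rests on 2 of the series' 4 arrays, 1 array a side. It covers the 18527 genes, of 34796 named on the array, whose spots were well above background on both. A gene's value is its signal relative to the 75th percentile of the same array, so that a value of 1 is the level below which 75% of that array's non-control spots lay. Differences are on the log2 scale, daidzein+PT minus PT.

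All 4 groups of the series were 3T3-L1 cells, differentiated into adipocytes first and only then given 7 days of treatment. The daidzein+PT cells received 25 uM daidzein and 100 ug/ml PT, and the PT cells 100 ug/ml PT. The other 2 groups, read beside them, received 25 uM daidzein alone or phosphate-buffered saline (PBS). The series title concerns the effect of the extract on adiponectin, a hormone secreted by fat cells. 3T3-L1 is a clonal line grown in dishes, so the cultures are no model of the vessels, immune cells or depot structure of fat tissue. With 1 array per group no test could be made and no p-value is given.

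Daidzein is an isoflavone of soy that binds estrogen receptors weakly and is classed as a phytoestrogen. Fat cell differentiation is driven by the nuclear receptor PPARg and the factor C/EBP alpha, which together switch on the genes for fatty acid uptake, triglyceride storage, insulin-stimulated glucose uptake and secreted hormones. In 3T3-L1 cultures only a share of the cells completes this programme, and the rest keep fibroblast traits.

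The 4 arrays shared 1 slide. Between 49.7% and 51.4% of the non-control spots were well above background and none was saturated. PBS was in row 1, column 3, daidzein in row 1, column 4, PT in row 2, column 1, and daidzein+PT in row 2, column 2. Both pairs that differ by daidzein (daidzein+PT against PT, and daidzein against PBS) therefore have the daidzein array in the next column, and an effect of the column cannot be told apart from daidzein in either pair. The 2 pairs share no array. Over genes read on all 4 arrays, split into 3 equal parts by mean signal, the spread between the pairs gave a log2 difference an SD of 0.33 in the dimmest part, 0.14 in the middle part and 0.11 in the brightest. Any dependence of daidzein on PT is part of that SD. An effect shared by both pairs, such as one of the column, is not part of it. The number of arrays limits the precision of every value.

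Of 48 gene lists, the PPARg target and mature adipocyte list had the highest median and the interferon-response list the lowest. Of 18527 genes, 389 (2.1%) were higher by 2-fold or more in daidzein+PT cells, and 160 (0.864%) were lower by that much. The 4-fold counts were 81 higher and 19 lower. The median over all genes was -0.01, with 8936 genes (48.2%) above 0 and 9591 (51.8%) below. Among the 12173 genes of the brighter 2 parts, 161 were higher and 38 lower by 2-fold or more.

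**Figure D1:**
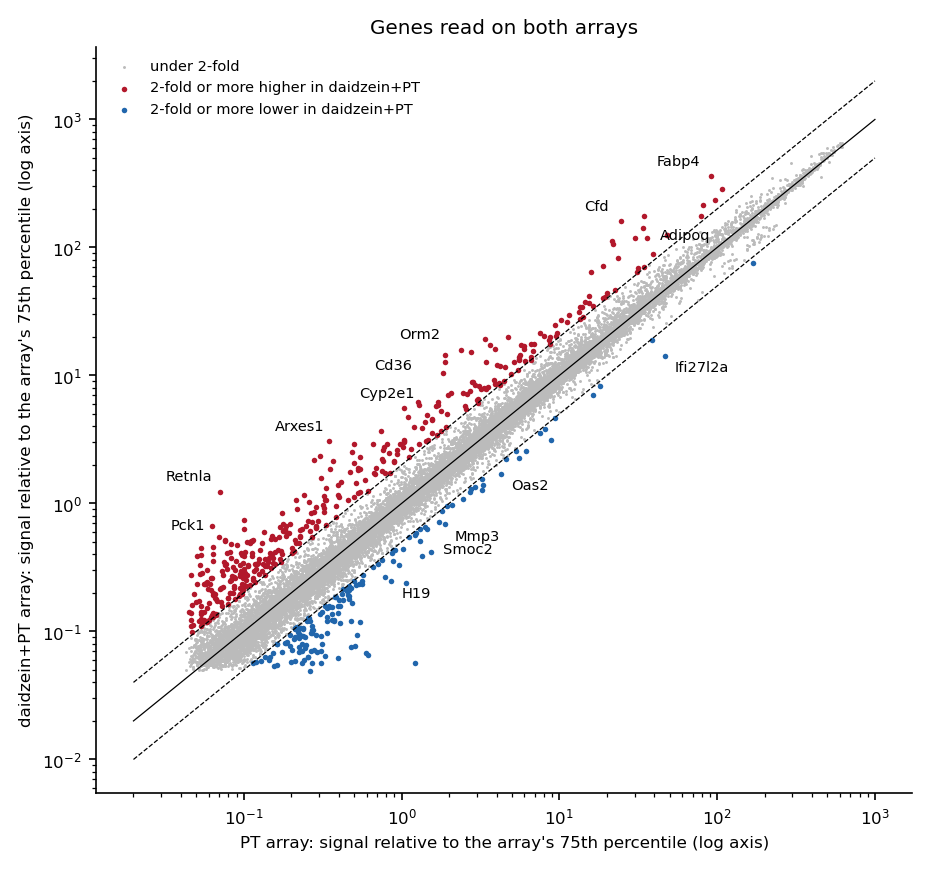
Signal of each gene on the daidzein+PT array (vertical axis) against the PT array (horizontal axis), both relative to the array's 75th percentile on log axes. Dashed lines mark 2-fold, and each point is 1 gene on 1 array a side. The 389 red genes lie above the upper dashed line and the 160 blue genes below the lower one, and the points spread most where the signal is low.

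Of 18 fatty acid uptake and binding genes, 12 were above 0 with a median of 0.14, and 6 were at least 2-fold higher and 0 lower. The scavenger receptor Cd36, which carries long-chain fatty acids into the cell, read 12.8 in daidzein+PT cells and 1.88 in PT cells, a 6.80-fold difference (probe at chr5:17288600-17288659, mm9). Slc2a4, the insulin-responsive glucose transporter GLUT4, read 15.7 in daidzein+PT cells and 2.38 in PT cells (6.58-fold). The fatty acid binding protein Fabp4 read 358 in daidzein+PT cells and 90.9 in PT cells (3.94-fold). On the log2 scale these 3 differences were 2.77, 2.72 and 1.98. Genes of their brightness have an SD of 0.14 or less, which holds no effect shared by both daidzein pairs and is no test. The insulin receptor Insr, in the dimmest part, read 0.679 in daidzein+PT cells and 0.353 in PT cells (1.92-fold), but its 3 probes ranged from -0.01 to 0.94. Among signal transducers downstream of it, the log2 differences were 0.14 for Irs1, 0.21 for Irs2, 0.14 for Akt2 and -0.14 for Akt1. The basal glucose transporter Slc2a1 stood at -0.07. Over the insulin signalling and glucose transport list the median was 0.14, with values from -0.91 to 2.72 and 7 of 23 members below 0. In that list 2 members, Slc2a4 among them, were at least 2-fold higher.

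**Figure D2:**
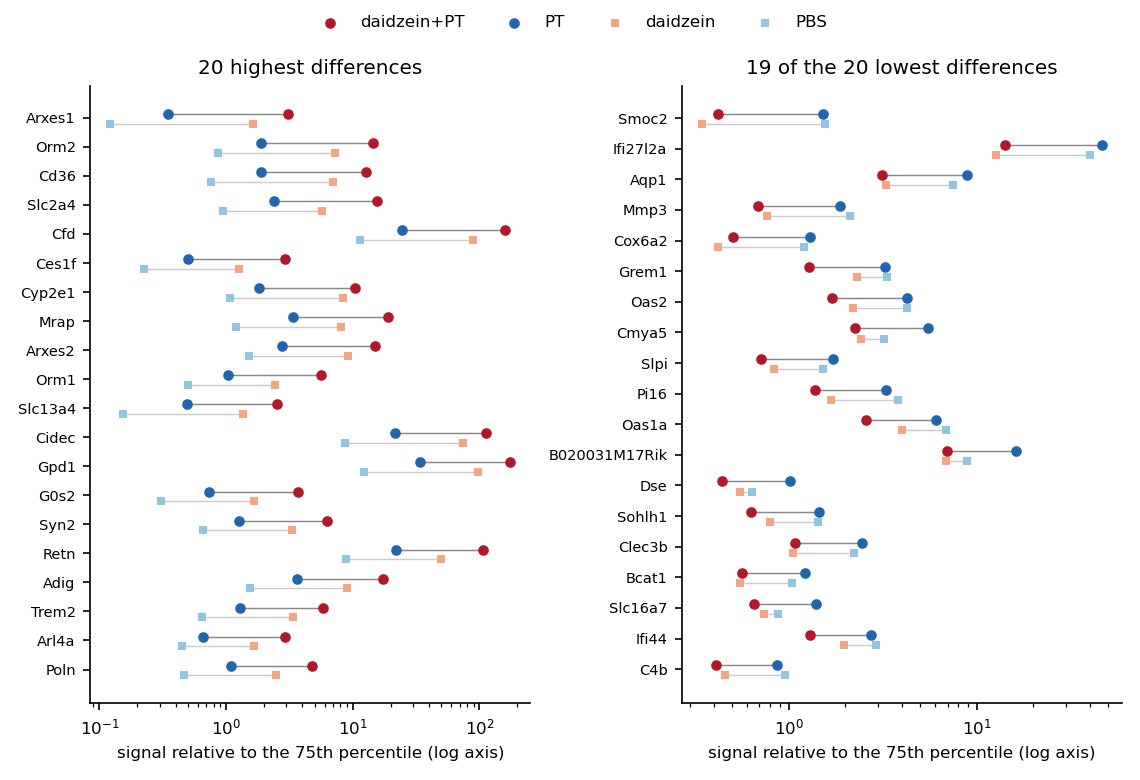
Signal on all 4 arrays (log axis) of the 20 genes with the highest and 19 of the 20 with the lowest difference daidzein+PT minus PT among the brighter 2 parts of genes. Circles are the daidzein+PT and PT arrays and squares the daidzein and PBS arrays, 1 array each. In the left panel the daidzein+PT circle lies to the right of all other symbols of its gene, for example at 159.6 for Cfd against 24.7 in PT cells.

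Over the 33 PPARg target and mature adipocyte genes on the array, 31 were read on both arrays, 29 were above 0 and 26 were at least 2-fold higher. Their median was 1.72, against -0.01 over all genes, and none was at least 2-fold lower. Cidea and Cyp4b1 were each well above background on 1 of the 2 arrays, Cidea in PT cells and Cyp4b1 in daidzein+PT cells. In these bulk cultures, more fat cells and more of these RNAs per fat cell cannot be told apart. Adipsin (Cfd), a serine protease of the complement system that fat cells secrete, read 159.6 in daidzein+PT cells, 24.7 in PT cells, 88.9 in daidzein cells and 11.5 in PBS cells. Adiponectin (Adipoq) read 142 in daidzein+PT cells and 33.8 in PT cells (4.20-fold; probe at chr16:23157576-23157635, mm9), with 79.4 in daidzein cells and 15.99 in PBS cells. Both genes had the same order of the 4 arrays, with daidzein+PT highest, daidzein next, then PT and PBS. Haptoglobin (Hp), a hemoglobin-binding protein, and the uncoupling protein Ucp2 were the 2 members below 0, at -0.27 and -0.01. Glycerol kinase (Gk) was at 0.14 in the dimmest part.

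The summed signal of 8 adipocyte markers was 822 in daidzein+PT cells, 187 in PT cells, 506 in daidzein cells and 88.5 in PBS cells, with 7 of the 8 well above background on each array. Leptin (Lep) was not well above background on either array of the comparison. Sums of the marker lists of other cell types differed far less: 31.9 in daidzein+PT cells and 31.3 in PT cells for 16 myeloid genes, and 11.2 in daidzein+PT cells and 10.695 in PT cells for 8 endothelial genes. Of the myeloid genes 9 were well above background in daidzein+PT cells and 8 in PT cells, among them Csf1r, Cd14, Itgam and Cd68, and 1, Marco, was at least 2-fold higher. Of the endothelial genes 3 were well above background in daidzein+PT cells and 2 in PT cells, with Kdr and Pecam1 so on both arrays. Ptprc, which marks all blood leukocytes, and Cdh5, which marks endothelium, were not well above background on either array. For 11 testis genes the sums were 9.08 in daidzein+PT cells and 9.11 in PT cells, and 5 of the 11 were well above background in daidzein+PT cells and 4 in PT cells. The sperm protamines Prm1 and Prm2, with Sox9 and Cyp17a1, were read on both arrays, and the germ cell genes Ddx4 and Dazl were not well above background on either. The 28 preadipocyte and fibroblast genes summed to 1346 in daidzein+PT cells and 1622 in PT cells.

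Lipid droplet genes were higher for most coat proteins and for each lipase in the breakdown of stored fat. Cidec, which fuses droplets, read 113 in daidzein+PT cells and 21.7 in PT cells (5.19-fold). Perilipin 1 (Plin1), the coat protein of large droplets, read 20.04 in daidzein+PT cells and 4.69 in PT cells (4.27-fold). The other coat proteins had smaller log2 differences, of 1.13 for Plin4, 0.22 for Plin2 and -0.15 for Plin3. The 3 lipases that act in turn on triglyceride, diglyceride and monoglyceride had log2 differences of 1.91 (Pnpla2), 2.04 (Lipe) and 2.95 (the dim Mgll). G0s2, an inhibitor of the first of them, stood at 2.33, and its activator Abhd5 at 0.78. Of 17 droplet and lipolysis genes read, 10 were at least 2-fold higher and none lower, with a median of 1.31. Plin5, the droplet coat of oxidative tissues, was not well above background on either array.

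Triglyceride assembly had at least 1 enzyme at 2-fold or more at each step from the glycerol backbone to the last acyl transfer. Glycerol-3-phosphate dehydrogenase (Gpd1), which supplies the glycerol backbone, read 175 in daidzein+PT cells and 34.2 in PT cells (5.13-fold). The acyltransferase Gpat3 read 16.01 in daidzein+PT cells and 3.93 in PT cells (4.08-fold). The following enzymes had log2 differences of 1.38 (Agpat2), 1.57 (Lpin1), 1.30 (Dgat1) and 1.09 (Dgat2). Isoforms of the same steps differed much less or the other way, at 0.17 for Gpat4, 0.29 for Agpat1, -0.28 for Agpat4 and -0.68 for the dim Lpin3. Phosphoenolpyruvate carboxykinase (Pck1), the enzyme of glyceroneogenesis, read 0.514 in daidzein+PT cells and 0.0760 in PT cells, and pyruvate carboxylase (Pcx) read 82.9 in daidzein+PT cells and 23.6 in PT cells (3.51-fold). Pck1 was in the dimmest part, and its log2 difference was 2.76, or 1.61 with normexp background correction. The list median was 0.84 over 17 genes, 8 of them at least 2-fold higher, and 0.56 without its largest member.

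**Figure D3:**
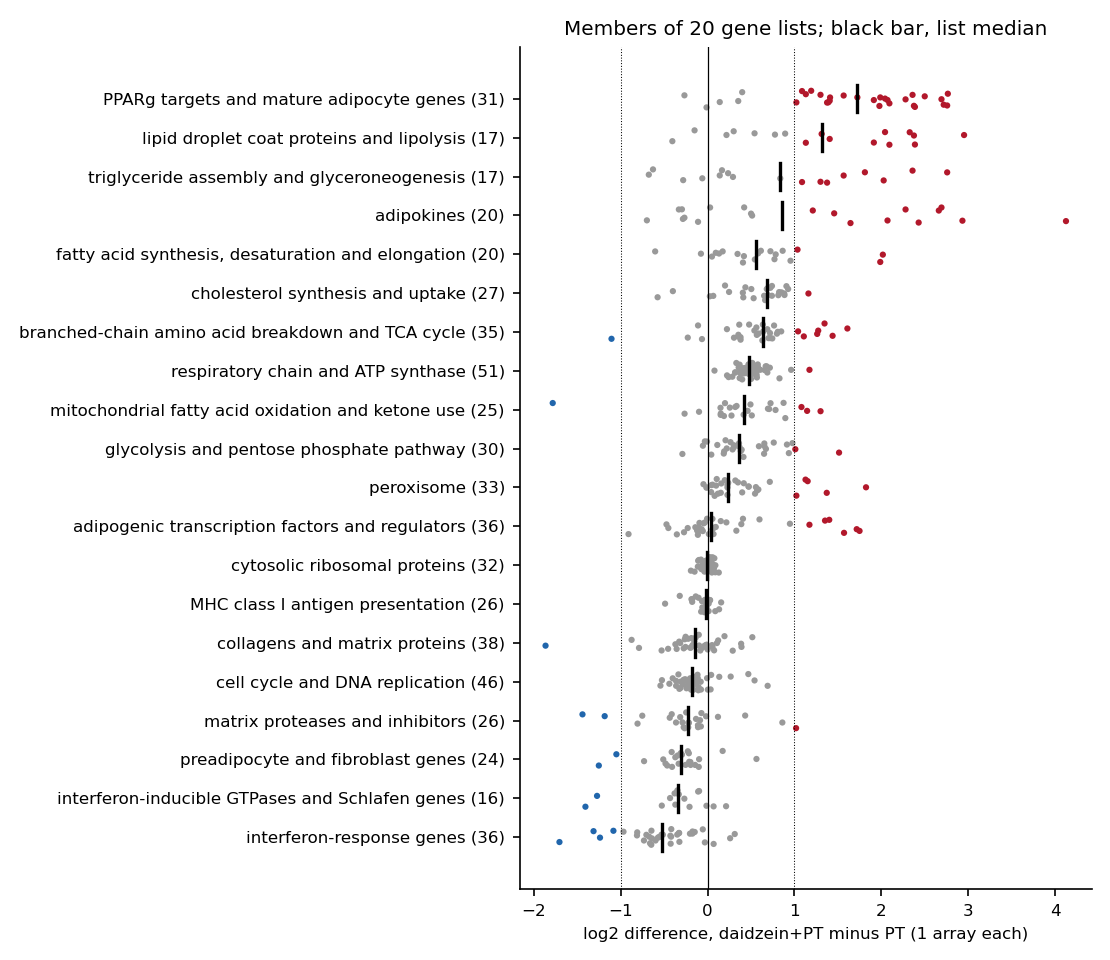
Log2 difference daidzein+PT minus PT of each member of 20 gene lists (points, 1 array a side), with the number of members read in brackets and the list median as a black bar. Dotted lines mark 2-fold. The PPARg list has its median at 1.72, the 51 respiratory chain genes all lie above 0, and the interferon-response list has its median at -0.52.

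Adipokines divided into 2 groups. Resistin (Retn) read 106 in daidzein+PT cells and 21.9 in PT cells (4.86-fold). The related Retnla read 1.23 in daidzein+PT cells against 0.0705 in PT cells, in the dimmest part. Orosomucoids, acute-phase carriers of lipids and drugs in plasma, were higher throughout: Orm2 read 14.4 in daidzein+PT cells and 1.88 in PT cells (7.65-fold), with log2 differences of 2.43 for Orm1 and 1.57 for Orm3. These 3 genes are near-identical copies, and a probe may read more than 1 of them. The siderophore-binding lipocalin Lcn2 (1.65), chemerin (Rarres2, 1.46), angiotensinogen (Agt, 1.21) and the dim neuregulin Nrg4 (2.66, or 1.41 with normexp) were also at least 2-fold higher. Saa3 (-0.70), Igf1 (-0.33) and Angptl4 (-0.30) were below 0. Over 20 adipokines the median was 0.86 (0.51 without its largest member), and 10 were at least 2-fold higher.

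Regulators of adipogenesis stood near 0 as a list, with a median of 0.03 over 36 genes, 6 of them at least 2-fold higher. C/EBP alpha (Cebpa) read 4.89 in daidzein+PT cells and 1.45 in PT cells (3.36-fold). Pparg read 27.2 in daidzein+PT cells and 10.3 in PT cells (2.64-fold). The LXR alpha gene Nr1h3 (1.57) and the Kruppel-like factor Klf15 (1.72) were at least 2-fold higher, as were the dim coactivator Ppargc1b (1.35) and the HLH inhibitor Id2 (1.17). With normexp, Ppargc1b (0.60) and Id2 (0.98) were under 2-fold. The early factors Cebpb and Cebpd, which precede PPARg during induction, were at 0.02 and -0.23. Klf5, another early factor, was the lowest of the list at -0.91. The PPARg antagonists of preadipocytes Gata2 and Gata3 were at -0.45 and -0.47, both in the dimmest part.

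Fatty acid and cholesterol synthesis genes were higher by less than 2-fold in most cases. Thrsp, a lipogenic regulator, read 64.7 in daidzein+PT cells and 15.97 in PT cells (4.05-fold), and stearoyl-CoA desaturase 1 (Scd1) read 119 in daidzein+PT cells and 30.03 in PT cells (3.97-fold). The core enzymes had log2 differences of 0.86 for fatty acid synthase (Fasn), 0.77 for acetyl-CoA carboxylase (Acaca), 0.61 for ATP citrate lyase (Acly) and 0.78 for malic enzyme (Me1). The elongase Elovl6 was the lowest member, at -0.60. The median over 20 genes was 0.56, with 18 above 0. In cholesterol synthesis 25 of 27 genes were above 0, with a median of 0.68 and 1 gene, the SREBP retention factor Insig1 (1.16), at least 2-fold higher (0.97 with normexp). Squalene epoxidase (Sqle), a rate-controlling enzyme, stood at 0.65, and HMG-CoA synthase (Hmgcs1) at 0.53. Farnesyl diphosphate synthase (Fdps) read 17.5 in daidzein+PT cells and 9.49 in PT cells (1.85-fold), against a 1.20-fold difference between daidzein and PBS cells.

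LXR targets and apolipoproteins were mixed. The cholesterol exporter Abca1 (1.13), the HDL receptor Scarb1 (1.24) and the apolipoproteins Apoc1 (1.53), Apoc2 (1.75) and Apoc4 (2.06) were at least 2-fold higher. Apoc2 and Apoc4 were in the dimmest part, and the genes are neighbours on chromosome 7. Apoe (-0.55) and Apod (-0.64) were among 4 of 14 genes below 0, and the list median was 0.55. Abcg1, a further member, was well above background in daidzein+PT cells alone, with 0.340 there and 0.0422 in PT cells.

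Mitochondrial genes differed together and by small amounts. All 51 respiratory chain and ATP synthase genes read were above 0 in daidzein+PT cells, against 48.2% of all genes. Their log2 differences ran from 0.08 (Ndufs4) to 1.17 (Cycs), with a median of 0.48. Cytochrome c (Cycs), the mobile electron carrier, read 88.2 in daidzein+PT cells and 39.1 in PT cells. The Rieske protein of complex III (Uqcrfs1) read 32.8 in daidzein+PT cells and 16.8 in PT cells (1.95-fold). Complex II, which is also a TCA cycle enzyme, stood at 0.61 (Sdha), 0.52 (Sdhb), 0.40 (Sdhc) and 0.40 (Sdhd). The SD of a single difference in the brightest part is 0.11, and all 51 genes share the scaling of the same 2 arrays.

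Tissue-specific cytochrome oxidase subunits ranged more widely than the common ones. Cox8b, a subunit of heart, muscle and brown fat, read 2.18 in daidzein+PT cells and 0.277 in PT cells. Cox7a1, the heart and muscle form, read 5.73 in daidzein+PT cells and 1.66 in PT cells (3.45-fold). Cox6a2, another heart and muscle form, was opposite, with 0.507 in daidzein+PT cells and 1.31 in PT cells (2.58-fold lower). The brown fat genes Ucp1, Prdm16 and Elovl3 were not well above background on either array, and Ppargc1a was at -0.35 in the dimmest part.

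Branched-chain amino acid breakdown and the TCA cycle had a median of 0.64 over 35 genes, 31 above 0. The mitochondrial aminotransferase Bcat2, which begins the pathway in most tissues, read 13.3 in daidzein+PT cells and 5.52 in PT cells (2.42-fold). Its cytosolic counterpart Bcat1 read 0.567 in daidzein+PT cells and 1.22 in PT cells (2.15-fold lower), with its 3 probes between -1.11 and -0.48. Bckdhb (1.26), Bckdha (0.72) and Dbt (1.61, or 0.75 with normexp), which form the branched-chain dehydrogenase complex, were above 0, as were the later enzymes Aldh6a1 (1.44) and Hibch (1.11). In the TCA cycle Idh3a (1.35), Cs (0.75) and Mdh1 (1.04) were above 0 and Idh2 (-0.11) and Suclg2 (-0.23) below.

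In fatty acid oxidation 22 of 25 genes were above 0, with a median of 0.42, and 3 were at least 2-fold higher and 1 lower. Hadhb, part of the trifunctional protein, read 21.3 in daidzein+PT cells and 9.62 in PT cells (2.21-fold). Oxct1, which consumes ketone bodies, was at 0.73. The entry enzymes Cpt1a and Cpt1b were at -0.26 and -0.10, and Cpt2, on the inner membrane, at 1.08. Peroxisomal genes had a median of 0.24 (30 of 33 above 0), led by Acox2 (1.82), the ether lipid enzyme Gnpat (1.37) and the sterol carrier Scp2 (1.15). Glycolysis and pentose phosphate genes had a median of 0.36 (26 of 30 above 0), with Pfkfb1 at 1.51, transaldolase (Taldo1) at 0.98 and hexokinase 2 (Hk2) at 0.91.

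Of 26 adipocyte G protein-coupled receptors and their accessory proteins, 12 were read on both arrays, with 7 above 0, 5 below 0 and 5 at least 2-fold higher. Their median was 0.50, and 0.14 without the largest member. Mrap, the accessory protein of the corticotropin receptor, read 19.1 in daidzein+PT cells and 3.38 in PT cells (5.66-fold), and that receptor, Mc2r, was at 2.31 in the dimmest part. The succinate receptor Sucnr1 (2.92), the beta-3 adrenergic receptor Adrb3 (2.39) and the short-chain fatty acid receptor Ffar2 (1.47) were also dim. Normexp brought these 3 to 1.48, 1.31 and 0.88. Arxes1, an X-linked gene switched on during fat cell differentiation, read 3.08 in daidzein+PT cells and 0.348 in PT cells, and its paralog Arxes2 read 15.1 in daidzein+PT cells and 2.75 in PT cells. Their sequences are close to each other, so that a probe may read both. Hsd11b1, which activates glucocorticoids, read 7.27 in daidzein+PT cells and 2.07 in PT cells (3.52-fold). The carbonic anhydrases Car3 (1.90) and the mitochondrial Car5b (1.84), and the caveolar proteins Cav1 (1.03), Cav2 (1.03) and Ehd2 (1.03), were at least 2-fold higher, out of 6 carbonic anhydrases and 8 caveolar genes read. The 2 probes of Ehd2 ranged from 0.18 to 1.03, and the 3 of Cav2 from 0.54 to 1.03. Cyp2e1, an ethanol- and acetone-oxidizing cytochrome P450, read 10.5 in daidzein+PT cells and 1.82 in PT cells (5.74-fold). It was the 1 member of 14 cytochrome P450 genes at 2-fold or more.

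Interferon-response genes were lower. Of 36 read, 33 were below 0, against 51.8% of all genes, and 4 were at least 2-fold lower, with a median of -0.52. Ifi27l2a, an interferon-inducible mitochondrial and nuclear membrane protein, read 14.2 in daidzein+PT cells and 46.4 in PT cells (3.26-fold lower; probe at chr12:104680394-104680453, mm9), with 12.6 in daidzein cells and 40.0 in PBS cells. Of the oligoadenylate synthetases, enzymes that sense viral RNA, Oas2 read 1.71 in daidzein+PT cells and 4.24 in PT cells, and Oas1a read 2.59 in daidzein+PT cells and 6.12 in PT cells. In both, the daidzein+PT array was the lowest of the 4. The fourth gene at 2-fold, Ifi44, was at -1.08. The ubiquitin-like modifier Isg15 read 28.9 in daidzein+PT cells and 50.7 in PT cells (1.75-fold lower). The transcription factors of the response had log2 differences of -0.64 (Irf7), -0.51 (Irf9), -0.53 (Stat2) and -0.03 (Irf1). Cxcl10 (0.31) was the highest member.

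The interferon-inducible GTPases and Schlafen genes had a median of -0.34 over 16 genes, 14 below 0. Slfn8 (-1.41) and Slfn2 (-1.27), both dim, were at least 2-fold lower (-0.75 and -0.83 with normexp), whereas Gbp2 (0.21) was above 0. MHC class I genes, of which several are interferon-inducible, had a median of -0.02, with the immunoproteasome subunits Psmb9 (-0.49) and Psmb8 (-0.32) the lowest of 26. Chemokines and inflammatory genes had a median of -0.03 with none at 2-fold, and Tnf, Il1b and Cxcl2 were not well above background on either array. The ribosomal protein list, given for scale, had a median of 0.00 with values from -0.19 to 0.13.

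**Figure D4:**
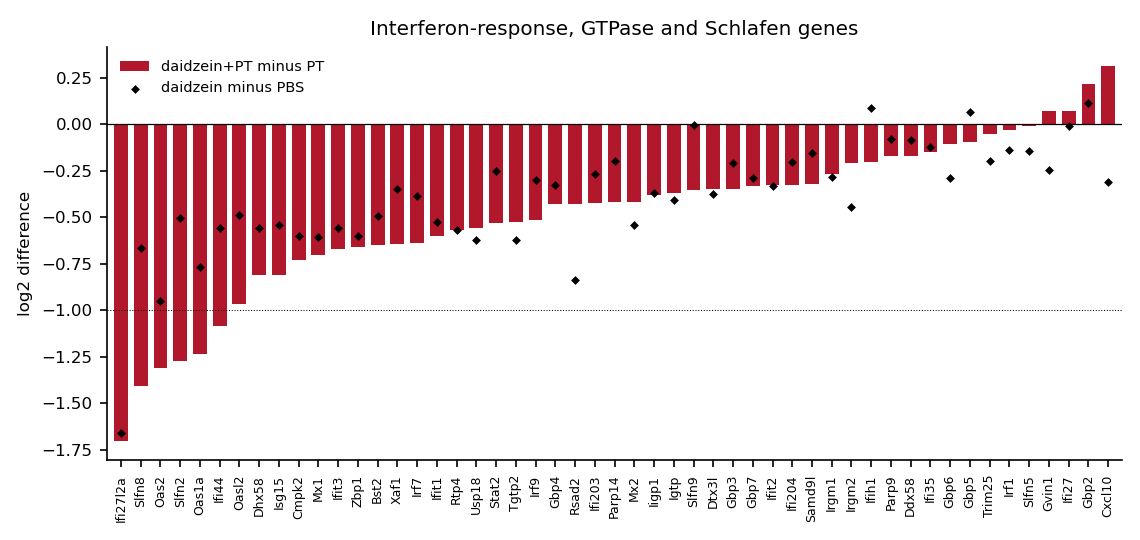
Log2 differences of 51 of the 52 interferon-response, GTPase and Schlafen genes: bars are daidzein+PT minus PT and diamonds daidzein minus PBS, 1 array each. The dotted line marks 2-fold lower. Bars run from -1.71 for Ifi27l2a to 0.31 for Cxcl10, and 6 of them pass the dotted line.

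Interferons act on many of these genes through the interferon-stimulated response element, and its letters were searched in RefSeq promoters (GRCm38.p6, 250 bases before to 50 after the start, both strands). The search string GAAANNGAAA was present for 22 of the 35 genes of both lists that had a promoter in the table, and for 3.62% of the 10344 genes read on both arrays that had one. Of these 22 genes, 20 were below 0. The median difference was -0.36 with the string and -0.51 without it in these lists, and -0.04 over all read genes that hold it. The promoters below belong to members of these lists, all of them described above except Ifit1 and Ifit3. Each runs 5′ to 3′ on the gene's own strand with the matches in capitals, read as the reverse complement where the match is on the other strand.

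Oas1a: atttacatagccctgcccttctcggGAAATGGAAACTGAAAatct
Isg15: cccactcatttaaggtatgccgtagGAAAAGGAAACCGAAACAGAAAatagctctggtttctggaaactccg
Ifit1: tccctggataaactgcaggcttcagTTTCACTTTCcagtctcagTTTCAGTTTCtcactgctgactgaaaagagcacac
Ifit3: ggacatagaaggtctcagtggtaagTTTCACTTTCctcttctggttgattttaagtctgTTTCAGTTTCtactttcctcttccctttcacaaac
Slfn8: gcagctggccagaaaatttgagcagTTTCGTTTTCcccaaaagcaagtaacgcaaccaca
Cxcl10: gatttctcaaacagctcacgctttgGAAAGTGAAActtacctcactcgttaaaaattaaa

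In GRCm38.p6 the Oas1a window is chr5:120907526-120907570 (minus strand), the Isg15 window is chr4:156200850-156200921 (minus strand), the Ifit1 window is chr19:34640760-34640838 (plus strand), the Ifit3 window is chr19:34583348-34583441 (plus strand), the Slfn8 window is chr11:83020824-83020883 (minus strand) and the Cxcl10 window is chr5:92349068-92349127 (minus strand). Overlapping matches, 2 in Oas1a and 3 in Isg15, appear as 1 run of capitals. Cxcl10 holds the string although it was above 0, and Ifit1 (-0.60) and Ifit3 (-0.67) hold it at 2 places each.

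The other strings were searched in the same way, with overlap between strings allowed, and 11 were searched in all. The C/EBP string TTGCNNAA was present in 12.2% of all promoters in the table, CCAAT in 41.1%, the DR1 string AGGNCANAGGNCA, a form bound by PPARg with its partner RXR, in 0.451%, and the sterol string TCACNCCAC in 1.44%. The estrogen response element GGTCANNNTGACC was present in 0.074%, the dioxin response core GCGTG in 35.2%, the NRF-1 site GCGCATGCGC in 1.07%, and the extended nuclear receptor site TCAAGGTCA in 0.466%. The hypoxia response core ACGTG was present in 21.8%, the DR4 string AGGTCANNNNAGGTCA in 0.0148% and the interferon string in 3.99%. Among genes at least 2-fold higher that had a promoter, 5 of 233 held DR1 and 0 the estrogen response element. Of the 18 genes with a promoter in the list of PPARg targets and mature adipocyte genes, 0 held DR1. At the shares above, the estrogen string over 233 promoters and DR1 over 18 are too rare for 0 matches to carry information. Acute-phase and complement genes had a median of -0.24, with 17 of 26 below 0 and 5 at least 2-fold higher (Cfd, Lcn2 and the orosomucoids). Of those with a promoter, 12 of 19 held the C/EBP string, and of cholesterol genes 18 of 20 held CCAAT and 1, Hmgcs1, the sterol string. The C/EBP string is shown in 3 acute-phase promoters whose values differ in sign, and DR1 in 2 genes at least 2-fold higher.

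Orm2: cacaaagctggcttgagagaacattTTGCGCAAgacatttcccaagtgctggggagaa
Orm3: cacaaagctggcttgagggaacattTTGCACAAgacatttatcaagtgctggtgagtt
Saa1: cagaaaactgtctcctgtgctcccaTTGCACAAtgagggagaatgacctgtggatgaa
Apoc2: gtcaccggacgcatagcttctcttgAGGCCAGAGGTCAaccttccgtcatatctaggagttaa
Slc13a4: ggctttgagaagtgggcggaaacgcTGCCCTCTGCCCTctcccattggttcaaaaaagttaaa

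In GRCm38.p6 the Orm2 window is chr4:63362304-63362361 (plus strand), the Orm3 window is chr4:63356012-63356069 (plus strand), the Saa1 window is chr7:46743130-46743187 (minus strand), the Apoc2 window is chr7:19678026-19678088 (minus strand) and the Slc13a4 window is chr6:35308177-35308239 (minus strand). Orm2 (2.93) and Orm3 (1.57) were higher in daidzein+PT cells, whereas Saa1, with the string as well, stood at -0.39. Slc13a4, a sulfate transporter, read 2.54 in daidzein+PT cells and 0.488 in PT cells (5.202-fold). A match describes these letters and shows no binding.

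Matrix and fibroblast genes had medians below 0, closer to 0 than that of the PPARg list. Smoc2, a matricellular calcium-binding protein, had the lowest value of the brighter genes, with 0.419 in daidzein+PT cells and 1.53 in PT cells (3.64-fold lower). Stromelysin (Mmp3), which degrades matrix proteins, read 0.691 in daidzein+PT cells and 1.87 in PT cells (2.71-fold lower). The fibroblast progenitor marker Pi16 read 1.39 in daidzein+PT cells and 3.30 in PT cells (2.38-fold lower). Of 24 preadipocyte and fibroblast genes, 22 were below 0 with a median of -0.30, and the surface markers Pdgfra, Thy1, Dlk1 and Ly6a were at -0.41, -0.41, -0.34 and -0.73. Of 38 collagen and matrix genes, 27 were below 0 with a median of -0.14. The basement membrane chains Col4a2 (0.52) and Col4a1 (0.39) were the highest of these, and the fibrillar Col1a1 (0.05), Col1a2 (0.06) and Col3a1 (-0.01) were near 0. The proteoglycan lumican (Lum) was at -0.87 and osteopontin (Spp1) at -0.79. Of 26 matrix proteases and inhibitors, 22 were below 0 with a median of -0.22, and the inhibitor Timp4 (1.02) was the 1 member at least 2-fold higher.

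Among the remaining low genes, the water channel Aqp1 read 3.13 in daidzein+PT cells and 8.90 in PT cells (2.84-fold lower). The BMP antagonist Grem1 read 1.28 in daidzein+PT cells and 3.25 in PT cells (2.53-fold lower). Slpi (-1.27), a protease inhibitor, tetranectin (Clec3b, -1.18) and complement C4b (-1.08, or -0.85 with normexp) were also at least 2-fold lower. In the TGF-beta and BMP list, with a median of -0.15, the ligand Gdf5 (1.79) and the BMP-responsive Id2 (1.17), Id1 (0.93) and Id3 (0.60) were above 0 and activin A (Inhba, -0.93) below. In the Wnt list, with a median of -0.16, the ligands Wnt6 (-0.87), Wnt4 (-0.83) and Wnt5a (-0.49) were below 0, and the dim Wnt10b, an inhibitor of adipogenesis, was at -0.03. The IGF binding proteins Igfbp6 (-0.82) and Igfbp4 (-0.57) were below 0. The imprinted RNA H19 read 0.248 in daidzein+PT cells and 0.862 in PT cells, in the dimmest part, and its 4 probes ranged from -1.97 to 0.42. The muscle cytoskeletal desmin (Des) was at 1.29 while the cardiac troponin Tnnt2 was at -1.002, both dim and at 0.65 and -0.28 with normexp.

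Cell cycle genes were slightly lower. Of 46 read, 38 were below 0 with a median of -0.18, and none was at 2-fold. The lowest were the spindle checkpoint kinase Bub1b (-0.54), cyclin D1 (Ccnd1, -0.53) and topoisomerase 2 alpha (Top2a, -0.44), and the highest was the cell cycle inhibitor Cdkn2c (0.69), which was above 0 with cyclin D2 (Ccnd2, 0.54).

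Esr1, the estrogen receptor alpha gene, was not well above background on either array, and Esr2 was at -0.14. Of 18 estrogen receptor and estrogen-responsive genes read, 2 were at least 2-fold higher, the dim Pdzk1 (2.34) and Greb1 (1.98), with a list median of 0.16. Among list members not read on both arrays, Tff1 was not well above background on either and Pgr was so on the PT array alone. Aryl hydrocarbon receptor and NRF2 targets had a median of 0.09 with none at 2-fold: Cyp1b1 stood at -0.11, Nqo1 at 0.09 and Hmox1 at 0.30, and Cyp1a1 was not well above background. Glutathione S-transferases had a median of 0.08, with Mgst3 (1.37), Gsta3 (1.31), Mgst2 (1.097) and Gstz1 (1.04) at least 2-fold higher. ER stress and chaperone genes (0.03), hypoxia targets (0.05), amino acid transporters (0.00) and iron handling genes (0.13) had medians close to 0. Single members lay farther out. Amino acid transporters ran from -0.91 to 1.36, with 2 of 16 at least 2-fold higher, against 2.1% of all genes. Hypoxia targets ran from -0.92 to 0.94.

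Daidzein against PBS gives the same contrast without the extract, on the other 2 arrays. There 208 of 18909 genes (1.1%) were higher by 2-fold or more and 70 (0.37%) lower. Of the 161 brighter genes at least 2-fold higher in daidzein+PT than in PT cells, 97 were also at least 2-fold higher in daidzein than in PBS cells and all 161 were above 0. Of the 38 at least 2-fold lower, 11 were at least 2-fold lower without the extract and 36 below 0. These genes were chosen on the daidzein+PT pair, so smaller values in the other pair are in part a result of that choice.

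Several metabolic lists had larger medians with the extract present, and the difference was not tested. Both PT arrays were in row 2 of the slide and the others in row 1, so an effect of the row cannot be told apart from PT. The fitted slope of the spike-in controls was 0.985 in PT and 0.990 in daidzein+PT, against 0.921 in PBS and 0.899 in daidzein. Whether the slopes bear on the size of the differences was not tested. Respiratory chain genes had 0.48 for daidzein+PT minus PT and 0.26 for daidzein minus PBS, and 50 of 51 were larger with PT. Cholesterol genes had 0.68 with PT and 0.38 without, and glycolysis genes 0.36 with PT and 0.05 without. Ribosomal proteins (30 of 32 larger with PT) and common reference genes (10 of 13) had gaps of the same sign. Their median gaps were 0.14 and 0.15, against 0.25 for the respiratory chain. The median gap was 0.07 in the brightest part and 0.03 over all genes read on all 4 arrays. Most genes of either set were therefore larger with PT as well, and their exact share was not counted. With quantile normalization, chosen after seeing the data, the gap was -0.01 for ribosomal proteins, 0.14 for the respiratory chain, 0.15 for cholesterol genes and 0.18 for glycolysis. Cyclic loess gave -0.01 for ribosomal proteins and 0.14 for the respiratory chain. The PPARg list had its gap on the other side (-0.17), with 14 of the 30 genes read on all 4 arrays larger with PT and 16 smaller. Cell cycle genes had -0.18 with PT and -0.39 without.

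**Figure D5:**
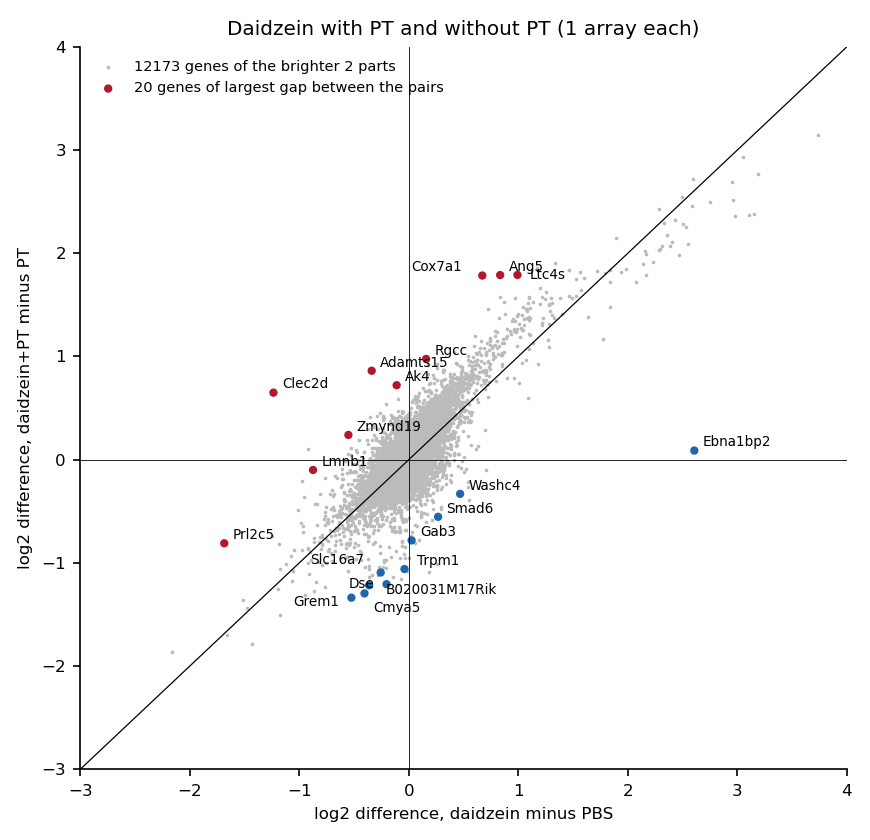
Log2 difference daidzein+PT minus PT (vertical axis) against daidzein minus PBS (horizontal axis) for the brighter 2 parts of genes, 1 array each. Coloured points are the 20 genes with the largest gap between the 2 pairs (red above the diagonal, blue below it), and the diagonal marks equal differences. Clec2d lies at 0.65 on the vertical and -1.24 on the horizontal axis, and Ebna1bp2 at 0.09 and 2.61.

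Among 18259 genes read on all 4 arrays, 124 (0.679%) had a gap of 2-fold or more on the positive side and 124 (0.679%) on the negative side. This split depended on the scaling: it was 158 positive and 87 negative with median centring, 155 and 99 with quantile normalization, 152 and 94 with cyclic loess, and 154 and 99 in the authors' series table. Cox7a1 read 5.73 in daidzein+PT cells and 1.66 in PT cells, against 2.33 in daidzein cells and 1.47 in PBS cells. Leukotriene C4 synthase (Ltc4s) read 5.91 in daidzein+PT cells and 1.71 in PT cells, against 2.76 in daidzein cells and 1.39 in PBS cells. In both genes the daidzein+PT array was the highest of the 4, followed by daidzein, PT and PBS. The melastatin channel Trpm1 read 2.21 in daidzein+PT cells and 4.61 in PT cells, against 2.41 in daidzein cells and 2.48 in PBS cells. Cmya5, a muscle cytoskeletal protein, read 2.25 in daidzein+PT cells and 5.52 in PT cells, against 2.42 in daidzein cells and 3.20 in PBS cells. For Trpm1 and Cmya5 the PT array was the highest of the 4. Ebna1bp2, a nucleolar protein, read 25.6 in daidzein+PT cells and 24.1 in PT cells, against 24.7 in daidzein cells and 4.05 in PBS cells. Its 3 probes ranged from -0.61 to 0.09 in daidzein+PT over PT.

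The dimmest part held the largest single values, with the least support. There 179 genes were at least 2-fold higher and 103 lower among 6086, where the SD is 0.33. Retnla (4.13), Mgll and Cox8b were also at least 2-fold higher in daidzein than in PBS cells, whereas Bicra, a chromatin remodelling subunit, read 0.450 in daidzein+PT cells and 0.0533 in PT cells but 0.0437 in daidzein cells and 0.0503 in PBS cells. Tnni2, a fast-muscle troponin, read 0.240 in daidzein+PT cells and 1.07 in PT cells, and 0.279 in daidzein cells and 0.941 in PBS cells. Zfp334 (-2.66), Nxf2 (-2.47) and Padi2 (-2.25) were low with smaller or opposite values in the other pair (-0.66, 0.12 and -0.32). With normexp, Retnla was at 2.65, Bicra at 1.62, Zfp334 at -1.28, Nxf2 at -1.39 and Padi2 at -0.97.

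Genes well above background on 1 of the 2 arrays have only a bound, taken against the higher of the dim spot and the dimmest signal well above background on that array. Of 22405 genes with a symbol, 13162 were read on both arrays. Among the rest, a bound could be set for 440 higher in daidzein+PT cells and 607 lower, of which 248 and 212 reached at least 2-fold. Of all non-control spots, 51.4% were well above background in PT and 49.7% in daidzein+PT. The 2 counts are therefore not read as a result about these genes. The largest were Cfap221 (at least 21.3-fold higher), Tmem45b (14.2) and Smcp (14.0), and Il12rb2 (at least 24.5-fold lower), Gast (20.4) and Hecw2 (17.7). In the other daidzein pair Cfap221 was well above background on both arrays, with 0.0598 in daidzein cells and 0.0587 in PBS cells. Tmem45b and Il12rb2 were well above background in daidzein cells and not in PBS cells, and Smcp, Gast and Hecw2 on neither array.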

How the data were processed

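RNA of 4 treatment groups, 1 array each, was read on a 1-colour Agilent mouse array (Cy3), so that no test, SD or p-value exists for a group. The deposited spot intensity, gProcessedSignal, was made with Agilent Feature Extraction 10.7.1.1 per the file headers (9.5.1.1 per the submitters' processing notes), which subtracts background. The deposited series table holds the authors' linear values of the same arrays, with the same median of 18.3 in each of the 4 columns. Its normalization is not given in the sources used here, and its log2 served as an alternative. Flag columns of the deposited files gave control spots and spots well above background.

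Control spots were left out, the log2 of each array's 75th percentile over the remaining spots was subtracted from each log2 signal, outlier spots were dropped, and spots of a probe were averaged. A gene's value is that of its brightest probe among those well above background on both arrays. Symbols were updated through RefSeq by accession, symbol or synonym (22405 of 34796 genes). A spread was taken as the SD over genes of the difference between the daidzein pairs, divided by the square root of 2, in each of 3 equal parts by signal. Python 3.11.15, numpy 2.4.6, pandas 2.3.3, R 4.3.3 and limma 3.58.1 were used, and the code was tested on simulated data.

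Named genes are the 20 highest and 20 lowest brighter genes, the 5 highest and lowest dim ones, list members at 2-fold or up to 6 of largest difference, the 10 largest gaps each way between pairs, the 5 largest bounds each way, and adiponectin with the reference genes. Some were left out of the text and of the plots by gene, and are not reported here. Other list members were named after their values were seen. The members and lists were chosen with earlier results of these data known. Alternatives were normexp (offset 50), quantile, cyclic loess, median centring, the series table, mean over probes, no filter, a filter on all 4 arrays and lists without their largest member.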

Additional observations from a re-analysis of the deposited data

Results flagged for a closer look

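Clec2d, a C-type lectin ligand of natural killer cell receptors, had differences of opposite sign in the daidzein pairs. Its log2 difference was 0.65 for daidzein+PT over PT and -1.24 for daidzein over PBS. Its relative signals were 3.95 in daidzein+PT cells and 2.52 in PT cells, against 1.31 in daidzein cells and 3.09 in PBS cells, from 1 probe. The difference between the pairs was not tested, since each group has 1 array.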

How the results depend on the processing

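Of 48 list medians, 11, all within 0.163 of 0 as reported, changed sign under at least 1 alternative. The Wnt list (-0.16) had 0.030 without a filter on dim probes, and adipogenic regulators (0.034) had -0.025 with quantile normalization and -0.020 in the authors' series table. MHC class I genes (-0.019) had 0.012 and ribosomal proteins (-0.0032) 0.028 with median centring. With normexp background correction, 228 genes were at least 2-fold higher in daidzein+PT than in PT cells and 42 lower, and gaps between the daidzein pairs of 2-fold or more numbered 27 positive and 11 negative. Without a filter on dim probes these counts were 2043, 1783, 2474 and 2696, against 389, 160, 124 and 124 as reported; the dim probes kept by that choice account for the added genes. The PPARg list median was 1.42 with normexp. The prostaglandin list (-0.34) had -0.12 with normexp and -0.027 without the filter. The triglyceride list (0.84) had 0.57 with the mean over probes and 0.56 without the filter, with the filter on all 4 arrays and without its largest member. Adipokines (0.86) had 0.51 without the filter and 0.51 without the largest member. Adipocyte G protein-coupled receptors (0.50) had 0.20 without the filter, 0.14 with all 4 arrays required and 0.14 without the largest member. The cause of the other shifts was not tested. Of 147 named genes at 2-fold, 34 were under 2-fold with normexp and 7 or fewer with each other setting. Quantile and cyclic loess values of the lists' gaps between pairs were chosen after seeing the data. No paired analysis was possible because each group has 1 array. Signal over background limits the dimmest part of the genes, where values depend most on the background correction and on the offset of 50 that normexp adds. The 75th percentile was 418 in PT and 360 in daidzein+PT cells, so the same offset weighs differently on the 2 arrays. The value toward which it draws dim differences need not be 0. How much of the normexp shifts the offset makes up was not tested.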
